A study of Homo sapiens with 15 samples.

Results

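The first day of mesoderm patterning in static culture was followed from Day 2 to Day 3 of cardiac differentiation of H1 human embryonic stem cells. All cells had received CHIR99021, a GSK3 inhibitor that activates WNT signalling, on Day 0, and insulin on Day 1. On Day 2 the cultures divided. NP-ctrl cells stayed in their wells in DF medium without supplements, and NP-IWP2 cells stayed in their wells in the same medium with IWP2, which blocks the secretion of WNT proteins (NP, non-passaged). A passaged arm was dissociated on Day 2 and replated, and its values appear here only beside those of the static arms. The 3 libraries compared, of 15 in the series, were Day 2, Day 3 NP-ctrl and Day 3 NP-IWP2.

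Each label had 1 library, and the 2 static libraries differed in IWP2, so they were not replicates. The difference between the days is therefore described without a p-value, and tests that treat the static libraries as a pair are given only among the alternatives. A gene is said to have risen or fallen when its level on the log2(FPKM + 1) scale differed from Day 2 by at least 1 in the same direction in both static libraries, where FPKM is the count per kilobase of exon, scaled to the total count of the library. Of 60605 genes, 13808 had an FPKM of at least 1 and at least 30 counts in at least 1 of the 3 libraries and were compared. Of these, 469 rose (3.40%) and 346 fell (2.51%). A gene below 1 FPKM on Day 2 was compared only if it reached 1 FPKM on Day 3, and it could not fall by this rule. Likewise, a gene below 1 FPKM in both static libraries was compared only through Day 2 and could not rise. Counts and medians of a list with low genes therefore partly reflect the filter. Whatever the size, 10759 of the 13808 changed in the same direction in both static libraries. The smaller of the 2 changes lay between 1 and 1.1 for 73 of the rises and 50 of the falls, and between 0.9 and 1 for a further 105 genes that were higher and 90 that were lower. These 815 genes are described below, with the members of 27 gene lists given whether or not they moved. The lists held 366 genes, of which 283 were compared, 38 rose and 49 fell. Because both static libraries were measured against the same Day 2 library, an error in that library would enter both changes, and the step in time, the withdrawal of insulin and the change of medium cannot be told apart.

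Total counts were 20250115 on Day 2, 16253300 in NP-ctrl and 13495766 in NP-IWP2. Mitochondrial genes took 4.63%, 4.80% and 4.66% of the counts, respectively. Fold values below are ratios of FPKM with exact 95% intervals, which cover counting error only. The median change over all genes compared was 0.04 in NP-ctrl and 0.10 in NP-IWP2. The median absolute gap between the static libraries was 0.21, and 206 genes (1.49%) had a gap of at least 1. The gap followed gene length: over the genes compared, its Spearman correlation with exonic length was 0.34, with a median gap (NP-IWP2 minus NP-ctrl) of -0.09 among the shortest genes and 0.19 among the longest when genes were divided into 3 equal classes. The 2 static libraries therefore do not give the error of a change, and their 2 values are not bounds on it. When this length trend was removed from each change, 469 genes rose and 347 fell.

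In the embryo, epiblast cells enter the primitive streak under WNT and NODAL signals, switch on the T-box gene TBXT, and leave as mesoderm. Cells that leave early under high BMP become lateral plate and cardiac mesoderm, marked by MESP1 and then by HAND, GATA and ISL1 factors. Cells that stay longer under WNT and FGF form presomitic mesoderm, in which a NOTCH-driven clock runs. The markers of mesoderm were abundant in all 3 libraries, and the sum of the 10 marker levels was 1252 FPKM on Day 2 and 1438 and 1228 FPKM in the static libraries. The 5 endothelial or blood markers summed to 0.57, 1.65 and 1.34 FPKM, and their defining members were at or near 0, with CDH5 at 0 counts in all 3 libraries. The 5 neuroectoderm markers summed to 10.5, 6.14 and 7.03 FPKM. Of the 5 definitive endoderm markers, summing to 202, 30.3 and 42.9 FPKM, most of the Day 2 level was CER1, while SOX17, the endoderm regulator, stood at 12.6, 16.7 and 20.5 FPKM. The 5 cardiomyocyte markers summed to 1.42, 9.64 and 6.55 FPKM. These are bulk cultures, in which fewer cells of a type and less RNA per cell cannot be told apart.

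The primitive streak programme fell. Of 13 streak genes compared, 8 fell, and the medians of the list were -1.30 in NP-ctrl and -1.55 in NP-IWP2. TBXT, on chr6:166157656-166168700 of GRCh38, had the largest fall of all protein-coding genes when ranked by the smaller of its 2 changes. Its level was 95.3 FPKM on Day 2, 3.03 in NP-ctrl and 2.90 in NP-IWP2, which was 31.5-fold lower (26.4 to 37.9) and 32.8-fold lower (27.0 to 40.4). EOMES, a T-box factor of mesendoderm, went from 128 FPKM to 15.3 and 46.8, and MIXL1, a homeobox gene of the streak, from 199 to 22.3 and 58.3. For both genes the NP-IWP2 library kept the higher level. GSC and LHX1, homeobox genes of the anterior streak, also fell, from 39.8 to 9.12 and 9.94 FPKM and from 177 to 18.3 and 37.9 FPKM. LHX1 had been at 0.40 FPKM on Day 1, so among Days 0 to 3 its highest level was that of Day 2. One gene of the list rose, FGF8, a ligand of the streak and of later heart-forming mesoderm, which went from 2.84 FPKM to 26.5 and 20.1. It had been at 54.95 FPKM on Day 1.

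Presomitic genes fell as a group. Of 11 compared, 8 fell and none rose, with medians of -1.33 and -1.35. TBX6, the T-box gene that specifies paraxial fate, was at 47.6 FPKM on Day 2 and at 19.4 and 21.8 FPKM on Day 3. MESP2, which sets the segment boundary, went from 118 to 46.5 and 53.2 FPKM. The clock and its NOTCH ligands moved further. DLL3 went from 612 to 105 and 121 FPKM, DLL1 from 155 to 16.1 and 17.2, LFNG, which glycosylates NOTCH, from 23.8 to 3.65 and 2.95, and HES7, the oscillating repressor, from 20.8 to 3.24 and 2.05. In each of these genes the static libraries lay close together and far from Day 2. FOXC1 fell from 144 to 40.8 and 55.9 FPKM, whereas FOXC2, its paralog, was at 23.8, 15.9 and 26.3 FPKM and did not pass. MESP1, the earliest marker of cardiac mesoderm, was at 81.8, 41.8 and 39.2 FPKM and lay just outside the rule, with changes of -0.95 and -1.04. MESP1 and MESP2 are neighbours of similar sequence, so the split of reads between them is uncertain.

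Pluripotency genes retreated unevenly. POU5F1, the core regulator of the undifferentiated state, fell from 241 FPKM to 82.1 and 76.0, and NANOG from 3.92 to 0.57 and 1.04. The other 10 of 12 genes did not pass in both libraries. LIN28A, an RNA-binding protein, was at 321, 194 and 174 FPKM, lower in both libraries by less than the threshold, and SALL4 was at 66.4, 53.4 and 71.7 FPKM. DNMT3B, the de novo methyltransferase, and TDGF1, the NODAL co-receptor, passed only in NP-ctrl, where their changes were -1.33 and -2.19 against -0.89 and -0.99 in NP-IWP2. SOX2 had no common direction, at 8.47, 4.53 and 10.2 FPKM, and it lies within SOX2-OT, which makes its counts uncertain.

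**Figure D1:**
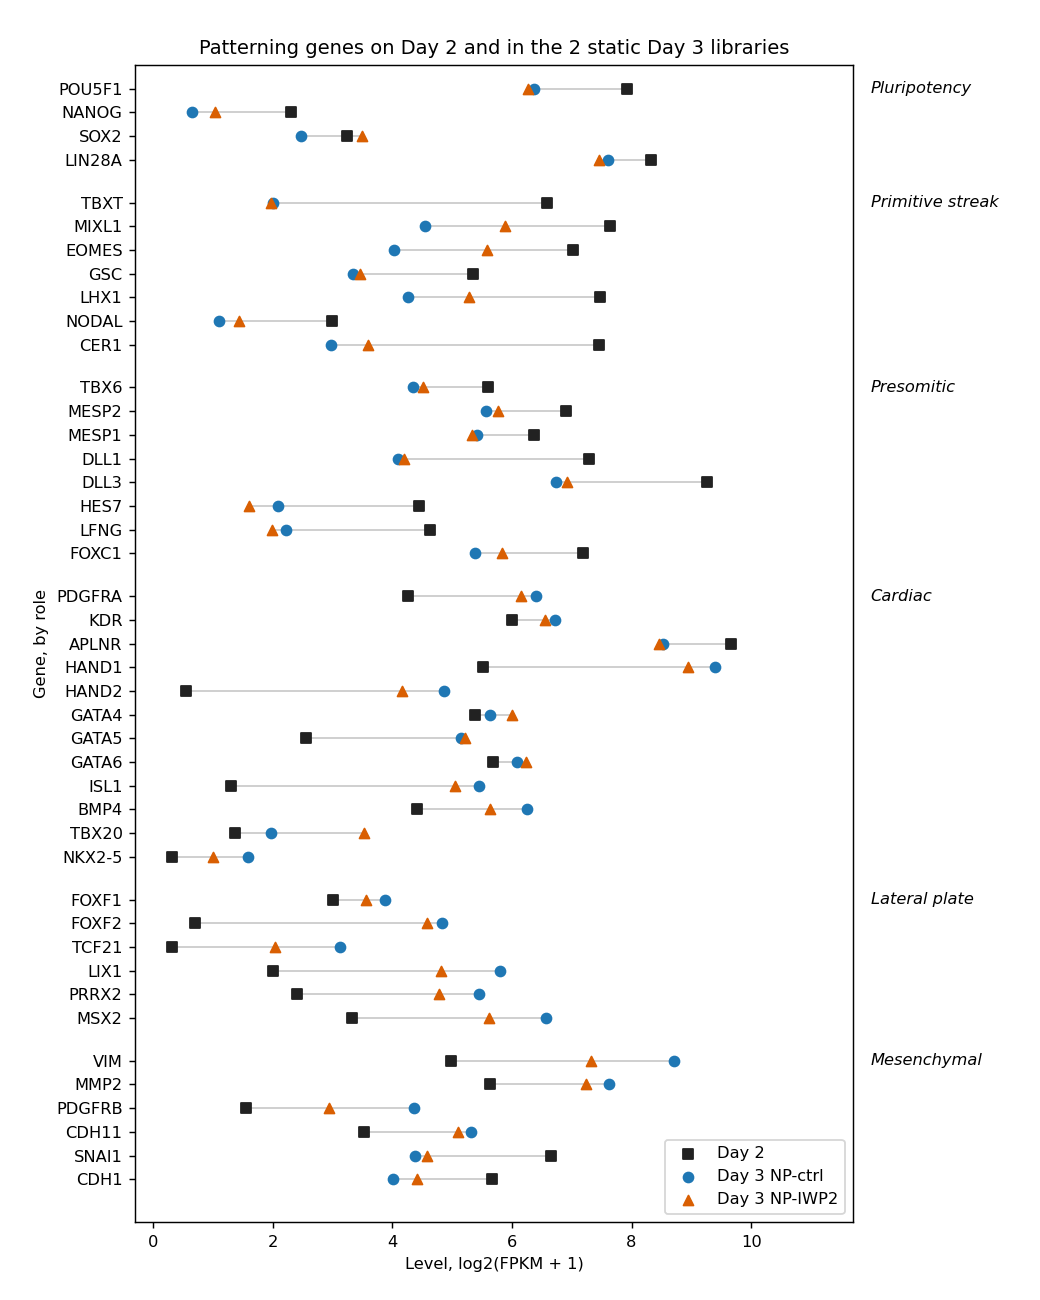
Levels of 43 patterning genes grouped by role, on the log2(FPKM + 1) scale, on Day 2 (black squares) and in Day 3 NP-ctrl (blue circles) and Day 3 NP-IWP2 (orange triangles). Each marker is 1 library and the grey line spans the 3 values. TBXT went from 95.3 FPKM to 3.03 and 2.90, and HAND1 from 44.9 FPKM to 671 and 492.

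Cardiac mesoderm genes rose. Of 18 compared, 8 rose and 1 fell, with list medians of 1.10 and 0.86. Of these genes, HAND2 and TBX2 were below 1 FPKM on Day 2 and could not have fallen by the rule. HAND1, a basic helix-loop-helix factor of lateral plate and first heart field mesoderm on chr5:154474972-154478227, went from 44.9 FPKM to 671 in NP-ctrl and 492 in NP-IWP2, a 15-fold rise (14.2 to 15.8) and an 11-fold rise (10.4 to 11.6). HAND2, its relative in the second heart field, was almost silent on Day 2 at 0.47 FPKM and reached 28.1 and 16.8 FPKM. ISL1, the LIM homeobox gene of second heart field progenitors, went from 1.46 to 42.8 and 32.1 FPKM, a 29.4-fold rise (23.6 to 37.1) and a 22-fold rise (17.6 to 27.9). All 3 genes were higher in NP-ctrl than in NP-IWP2, and both static libraries lay far above Day 2. In the passaged library of Day 3 the same genes were at 103, 0.71 and 17.1 FPKM.

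Among the other cardiac regulators, PDGFRA, a receptor of cardiac mesoderm, rose from 18.1 to 83.4 and 69.9 FPKM, GATA5 from 4.88 to 34.3 and 36.1 FPKM, and BMP4 from 20.2 to 74.9 and 48.9 FPKM. TBX2, a repressor of chamber genes, had 0 counts on Day 2 and 200 and 130 counts on Day 3, which was at least 83.1-fold and at least 65.0-fold higher against a floor of 3 counts. TBX1 rose from 11.8 to 26.0 and 25 FPKM, with changes of 1.08 and 1.02 that lay close to the threshold. GATA4 and GATA6, which were already at 40.7 and 50.6 FPKM on Day 2, changed by 0.26 and 0.39 in NP-ctrl and by 0.62 and 0.55 in NP-IWP2, so the 3 cardiac GATA factors did not move alike. APLNR, the apelin receptor of nascent mesoderm, was the one cardiac gene that fell, from 811 to 366 and 353 FPKM. KDR, the VEGF receptor, was at 62.8, 104 and 92.9 FPKM and did not pass. NKX2-5 passed in NP-ctrl only, at 0.24, 2.01 and 1.01 FPKM, and TBX5 was below the filter at 0.57, 0.40 and 0.68 FPKM.

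Lateral plate genes outside the heart field rose with them. Of 14 listed genes, 10 were compared, 5 rose and none fell, with medians of 1.84 and 1.27. Among all genes compared, 3.40% rose and 2.51% fell. FOXF2 and TCF21 were below 1 FPKM on Day 2, so they entered through Day 3 and could not have fallen by the rule. OSR1, WT1, TBX18 and PRRX1 were below the filter and are outside the medians. FOXF2, a forkhead gene of splanchnic mesoderm, went from 0.62 FPKM to 27.6 and 22.9, while its relative FOXF1 was at 7.00, 13.6 and 10.8 FPKM with changes of 0.87 and 0.56. MSX2, a BMP target, went from 9.04 to 94.5 and 48.3 FPKM, while MSX1 did not pass, with changes of 0.67 and -0.69. LIX1 went from 3.00 to 54.8 and 27.0 FPKM, PRRX2 from 4.31 to 42.5 and 26.4 FPKM, and TCF21, a regulator of the epicardium, from 0.24 to 7.69 and 3.12 FPKM. In 4 of these 5 genes the NP-ctrl level was at least 1.5 times that of NP-IWP2. WT1 and TBX18, markers of mature mesothelium, had 0 counts in all 3 libraries.

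Sarcomere genes had begun to appear at low levels. Of 19 contractile genes, 11 were compared, 6 rose and none fell, with medians of 1.42 and 1.22. Among all genes compared, 3.40% rose and 2.51% fell. MYL4, MYL3 and TNNI1 were below 1 FPKM on Day 2, so they entered through Day 3 and could not have fallen by the rule. Members below the filter are outside the medians, so the medians and the absence of falls partly reflect the filter. MYL7, the atrial light chain, went from 1.02 to 7.01 and 5.29 FPKM, MYL4 from 0.06 to 8.09 and 2.90, MYL3 from 0.37 to 4.81 and 3.36, and ACTC1, cardiac actin, from 1.38 to 8.14 and 5.60. TNNI1 went from 0.08 to 4.11 and 2.17 FPKM. TNNT2, the cardiac troponin T, was at 0.07, 0.11 and 0.06 FPKM, and the myosin heavy chains MYH6 and MYH7 were below 0.50 FPKM in all 3 libraries.

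**Figure D2:**
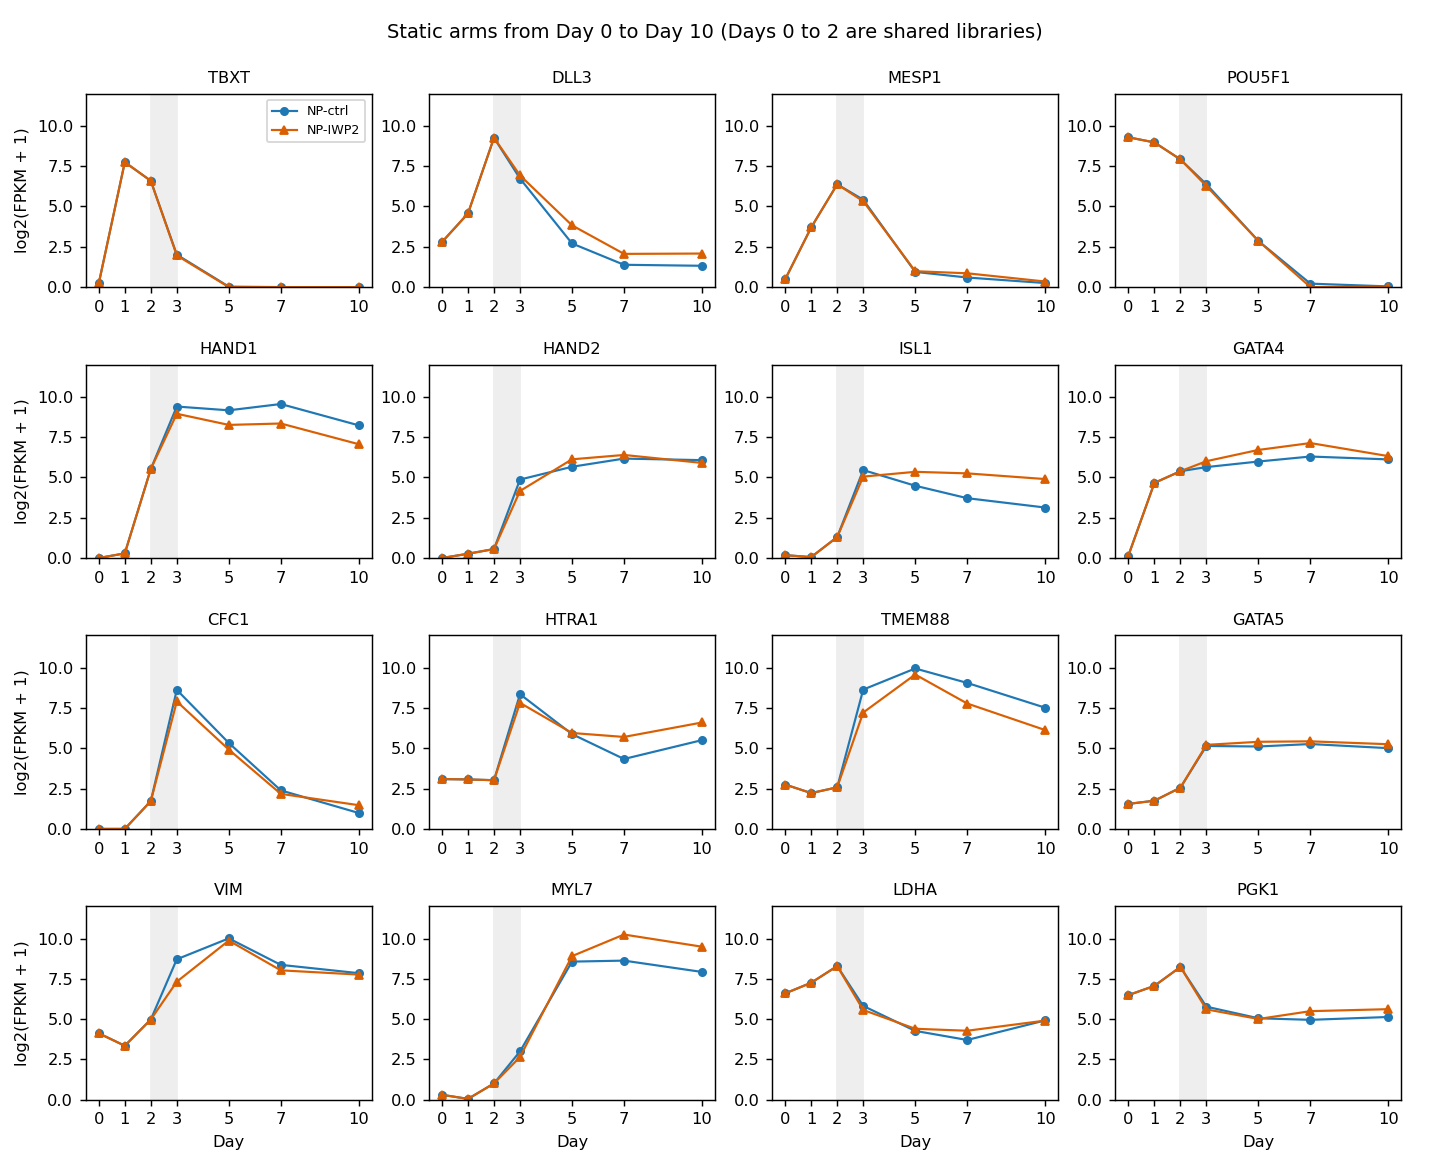
Levels of 16 genes, as log2(FPKM + 1), in the static arms from Day 0 to Day 10, with NP-ctrl in blue circles and NP-IWP2 in orange triangles. Each point is 1 library, Days 0, 1 and 2 are shared, and the grey band marks Day 2 to Day 3. CFC1 went from 2.30 FPKM to 393 and 239 within the band and was at 0.98 FPKM in NP-ctrl on Day 10, whereas TBXT peaked on Day 1 at 214 FPKM.

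The protein-coding genes with the largest rises, ranked by the smaller of the 2 changes, were CFC1, CRB2, HTRA1, SHD, TMEM88, LRRC32, N4BP2L1, GLIPR2, FOXF2 and ISL1. CFC1, a NODAL co-receptor of the EGF-CFC family on chr2:130592165-130599575, had 78 counts on Day 2 and 10680 and 5387 on Day 3. Its level went from 2.30 FPKM to 393 and 239, a 171-fold rise (137 to 216) and a 104-fold rise (82.9 to 131). CFC1B, a near-identical copy, rose from 0.18 to 14.1 and 8.39 FPKM, so the share of each copy is uncertain. CRB2, an apical polarity protein needed for cells to leave the streak, was barely detected on Day 2 with 3 counts, and had 2980 and 2810 counts on Day 3. HTRA1, a secreted serine protease, went from 7.11 to 326 and 224 FPKM. TMEM88, a membrane protein that restrains WNT signalling in cardiac progenitors, went from 4.97 to 398 and 148 FPKM. These 4 genes also stood high in the passaged library of Day 3, at 257, 34.7, 272 and 368 FPKM for CFC1, CRB2, HTRA1 and TMEM88. By contrast, SHD, LRRC32, N4BP2L1 and GLIPR2 were at 37.2, 30.6, 26.5 and 130 FPKM in NP-ctrl and at 9.48, 5.00, 4.72 and 28.4 FPKM in the passaged library. With 1 library each, that difference was not tested.

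The largest falls, ranked in the same way, were those of TBXT, LZTS1, CER1, LIPG, KCNV1, DKK4, DIO3, ETV4, DLL1 and FGF4. CER1, a secreted inhibitor of NODAL, BMP and WNT, went from 174 to 6.85 and 11.1 FPKM. LZTS1, a leucine zipper protein, went from 117 to 2.32 and 5.92 FPKM, and LIPG, endothelial lipase, from 23.3 to 0.69 and 0.53 FPKM. DKK4, a WNT antagonist and WNT target, had 165 counts on Day 2 and 0 in both static libraries, which was at least 44.1-fold and at least 36.7-fold lower. DIO3, which inactivates thyroid hormone, went from 62.4 to 4.74 and 5.68 FPKM. Of these genes, LZTS1, LIPG, KCNV1, DIO3 and DLL1 had been lower on Day 1 than on Day 2, at 9.55, 0.48, 0.08, 0.34 and 10.3 FPKM, so their levels peaked on Day 2 among the first 4 days, whereas TBXT, CER1, DKK4, ETV4 and FGF4 were already past their Day 1 levels.

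**Figure D3:**
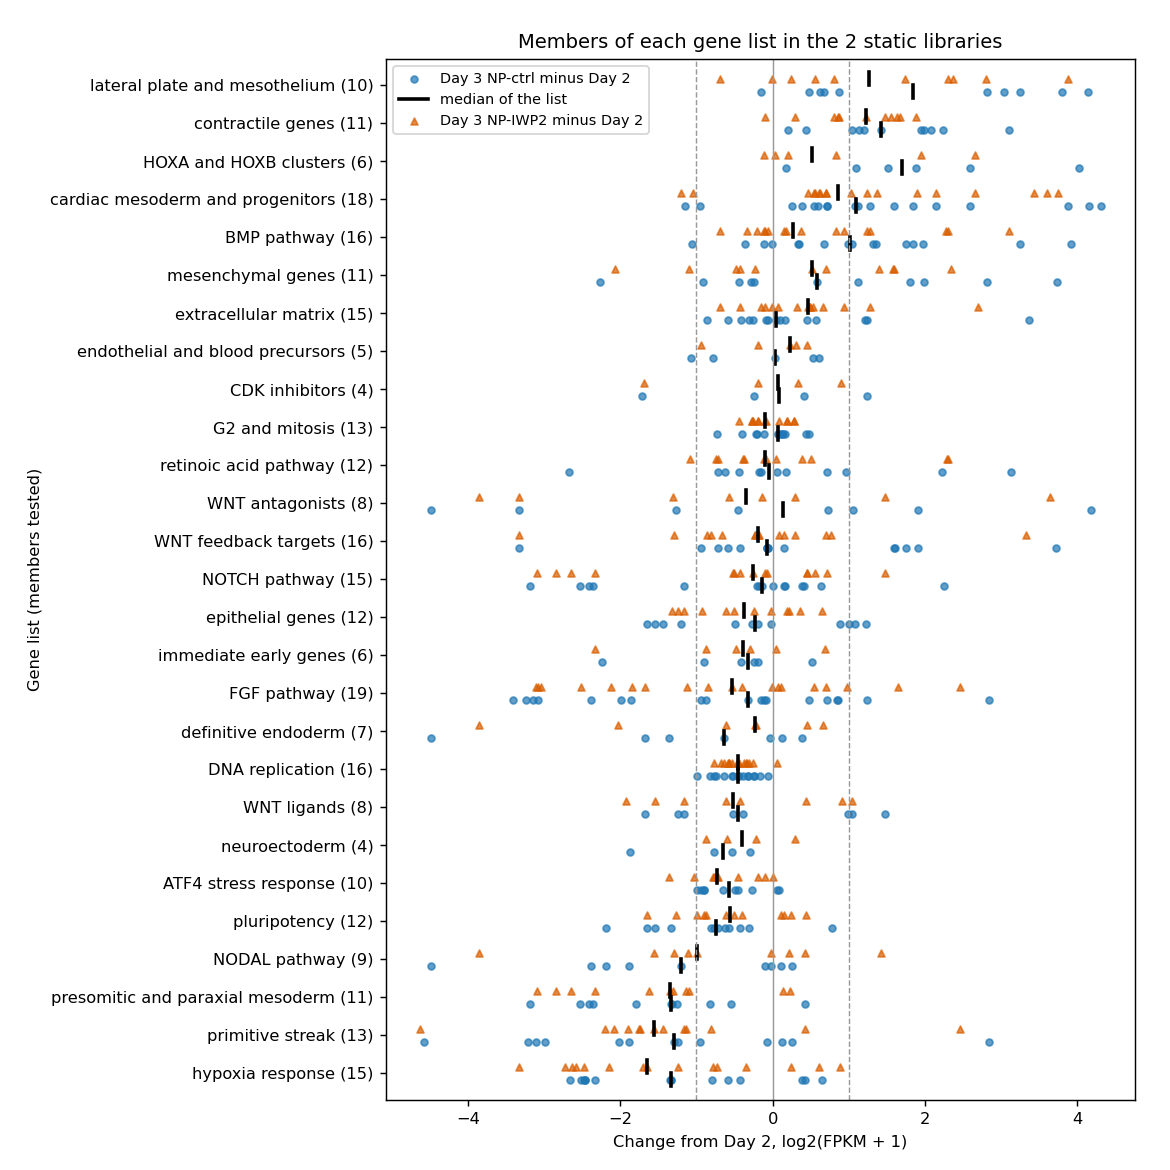
Change from Day 2 of every compared member of 27 gene lists, in log2(FPKM + 1), in NP-ctrl (blue circles) and NP-IWP2 (orange triangles). Black bars are list medians, dashed lines mark a change of 1 in either direction, and the number of members compared follows each name. Lateral plate genes had the highest medians (1.84 and 1.27) and hypoxia response genes the lowest (-1.34 and -1.65). Members below the filter are not shown, so the order of the medians partly reflects the filter.

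Signalling genes were taken by pathway. In the FGF pathway some ligands fell and others rose. FGF4, FGF17 and FGF19 fell, from 16.1 to 1.03 and 1.03 FPKM, from 55.3 to 9.79 and 11.9 FPKM, and from 21.3 to 1.52 and 1.71 FPKM. FGF8 and FGF10, ligands of heart-forming mesoderm, rose, and FGF10 went from 0.86 to 3.39 and 4.82 FPKM. On Day 1 the 2 genes had been at 54.95 and 2.45 FPKM, above Day 2, and FGF8 stayed below its Day 1 level. Some feedback genes fell: SPRY4, an inhibitor of the pathway, was at 52.4, 4.05 and 8.34 FPKM, ETV4 at 31.3, 2.42 and 2.74, ETV5 at 14.4, 2.89 and 3.30, and SPRY1 at 22.2, 5.39 and 6.23. Others did not pass in both libraries, with SPRY2 at 23.8, 33.4 and 25.1 FPKM, SPRED1 at 10.4, 9.53 and 10.4, SPRED2 at 16.3, 8.02 and 10.9, and DUSP6, past in NP-IWP2 only, at 25.5, 23.0 and 11.2. Of 19 members compared, 7 fell and 2 rose, and the receptors FGFR1 to FGFR4 did not pass.

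In the NODAL list 4 of 9 members fell and none rose, although CFC1, a co-receptor outside the list, rose as described above. NODAL itself went from 6.96 to 1.15 and 1.71 FPKM, and GDF3 from 7.63 to 0.65 and 3.00 FPKM. LEFTY2, a NODAL inhibitor, passed in NP-IWP2 only and in the other direction, at 0.93, 1.08 and 4.18 FPKM. Of 16 BMP genes, 5 rose and none fell in both libraries, while 9 were higher and 3 lower in both, whatever the size. Of all 13808 genes compared, 10759 shared a direction in this way. BMP2, a ligand, passed in NP-ctrl only, in the downward direction, at 33.6, 15.6 and 29.0 FPKM. BMP5 went from 3 counts to 947 and 423, and SMAD6, an intracellular BMP inhibitor, from 9.69 to 40.8 and 50.9 FPKM. The immediate BMP targets ID1 and ID3 did not pass, at 108, 137 and 99.9 FPKM and at 213, 270 and 168 FPKM. CHRD, a BMP antagonist, rose from 0.65 to 3.11 and 3.00 FPKM. The BMP list median was 1.01 in NP-ctrl and 0.27 in NP-IWP2, so the size of the list's change rested on the library. For some members the direction did too. MSX1, ID1 and ID3 were above Day 2 in NP-ctrl and below it in NP-IWP2, with changes of 0.67 and -0.69 for MSX1.

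WNT genes gave no single direction. Among 8 ligands compared, WNT3, WNT5A and WNT8A fell, from 28.4 to 11.5 and 12.1 FPKM, from 103 to 31.6 and 34.6 FPKM, and from 79.5 to 35 and 20.2 FPKM. Among 16 WNT feedback targets, 1 rose and 1 fell, with medians of -0.07 and -0.19. AXIN2, the general target, was at 7.66 FPKM on Day 2 and at 8.59 and 6.55 FPKM on Day 3, after 32.8 FPKM on Day 1. LGR5, a receptor for R-spondins, rose from 1.42 to 31.0 and 23.3 FPKM. Secreted antagonists exchanged: SFRP5 rose from 0.18 to 20.4 and 13.7 FPKM and SFRP1 from 57.3 to 120 and 160 FPKM, whereas SFRP2 fell from 106 to 43.3 and 42.0 FPKM.

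Of 15 NOTCH members, 4 fell, all of them the presomitic genes above, and HEY1, a target gene, rose from 0.53 to 6.28 and 3.25 FPKM. Of 12 retinoic acid genes, RDH10, which makes retinaldehyde, rose from 3.11 to 35 and 19.0 FPKM, and RARB, a receptor and target, from 0.08 to 4.03 and 4.31 FPKM. ALDH1A2, the enzyme that makes retinoic acid in mesoderm, was at 0.06, 1.06 and 0.50 FPKM and did not pass, and CYP26A1, which degrades retinoic acid, passed in NP-ctrl only with changes of -2.67 and -0.75. In the HOX clusters 6 genes of HOXB and none of HOXA reached the filter. HOXB2 rose from 1.71 to 43.1 and 16.1 FPKM and HOXB3 from 0.39 to 7.41 and 4.34 FPKM. HOXB4, HOXB5 and HOXB6 passed in NP-ctrl only, at 3.07, 2.09 and 1.23 FPKM against 0.96, 0.24 and 0.06 FPKM in NP-IWP2, and HOXB13 was at 5.20, 6.01 and 4.71 FPKM.

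Some mesenchymal genes rose and some epithelial genes fell. VIM, an intermediate filament of mesenchyme, went from 30.6 to 419 and 159 FPKM, a 13.7-fold rise (13.2 to 14.2) in NP-ctrl and a 5.21-fold rise (5.01 to 5.42) in NP-IWP2. Of 11 mesenchymal genes 4 rose, with MMP2, PDGFRB and CDH11 beside VIM, and 1 fell. The latter was SNAI1, the repressor that starts the epithelial to mesenchymal transition, which went from 99.7 to 19.9 and 22.9 FPKM. Of 12 epithelial genes, CDH1, the cadherin of epithelia, fell from 49.6 to 15.1 and 20.4 FPKM, as did CLDN7 and the splicing factor ESRP1. EPCAM was at 37.1, 30.7 and 23.9 FPKM, and KRT8 at 105, 245 and 122 FPKM. Of 15 matrix genes, only FN1 and COL1A1 rose, COL1A1 from 3.09 to 41.1 and 25.5 FPKM.

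The hypoxia response list had the lowest median changes. Of 15 genes compared, 9 fell and none rose. LDHA, lactate dehydrogenase on chr11:18394560-18408425, was at 313 FPKM on Day 2, 55.5 in NP-ctrl and 46.5 in NP-IWP2, which was 5.63-fold lower (5.47 to 5.79) and 6.72-fold lower (6.50 to 6.95). PGK1, phosphoglycerate kinase, was at 301, 53.8 and 47.8 FPKM, and SLC2A1, the glucose transporter, at 61.6, 8.92 and 5.25 FPKM. The members that fell were mainly enzymes of glucose use (SLC2A1, HK2, PGK1, ENO1, LDHA, PDK1), with BNIP3, a mitophagy receptor, P4HA1, a collagen hydroxylase, and KDM3A, a histone demethylase. VEGFA and ADM, secreted factors of the list, were at 5.50, 7.50 and 8.87 FPKM and at 2.34, 4.21 and 5.16 FPKM and did not pass. In the passaged library LDHA and PGK1 were at 37.4 and 44.7 FPKM, somewhat below the static values. Other members that fell differed in both directions. SLC2A1 and HK2 were higher than in both static libraries, at 18.0 and 11.3 FPKM. P4HA1 and PDK1 were lower than in both, at 12.6 and 1.78 FPKM.

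A further list of 22 genes of glucose uptake, glycolysis and lactate export was chosen after these values were seen. Of the 22 genes, 15 fell and none rose, with medians of -1.29 and -1.47. SLC2A1, HK2, PGK1, ENO1 and LDHA fell and are in both this list and the hypoxia list. The counts of the 2 lists therefore partly repeat each other. Steps from glucose entry to lactate export were represented: HK1 went from 49.7 to 15.3 and 14.8 FPKM, GPI from 43.7 to 14.1 and 14.5, ALDOA from 66.5 to 27.4 and 25.7, TPI1 from 380 to 188 and 142, PKM from 257 to 124 and 117, and SLC16A3, the lactate exporter, from 27.2 to 7.01 and 5.79. Not every member passed, and whatever the size 20 were lower and 2 higher in both static libraries. PFKL, at 43.8, 29.3 and 30.3 FPKM, and LDHB, at 149, 144 and 109 FPKM, were lower by less than the threshold. The 2 higher members were the phosphofructokinase genes PFKM and PFKP, which did not pass either. PFKP was at 15.9, 26.6 and 25 FPKM. GAPDH, often used as a reference gene, was at 1620, 1190 and 978 FPKM. TXNIP, an inhibitor of glucose uptake, rose from 74.4 to 161 and 151 FPKM and its relative ARRDC4 from 5.36 to 12.9 and 12 FPKM, both named after their values were seen.

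**Figure D4:**
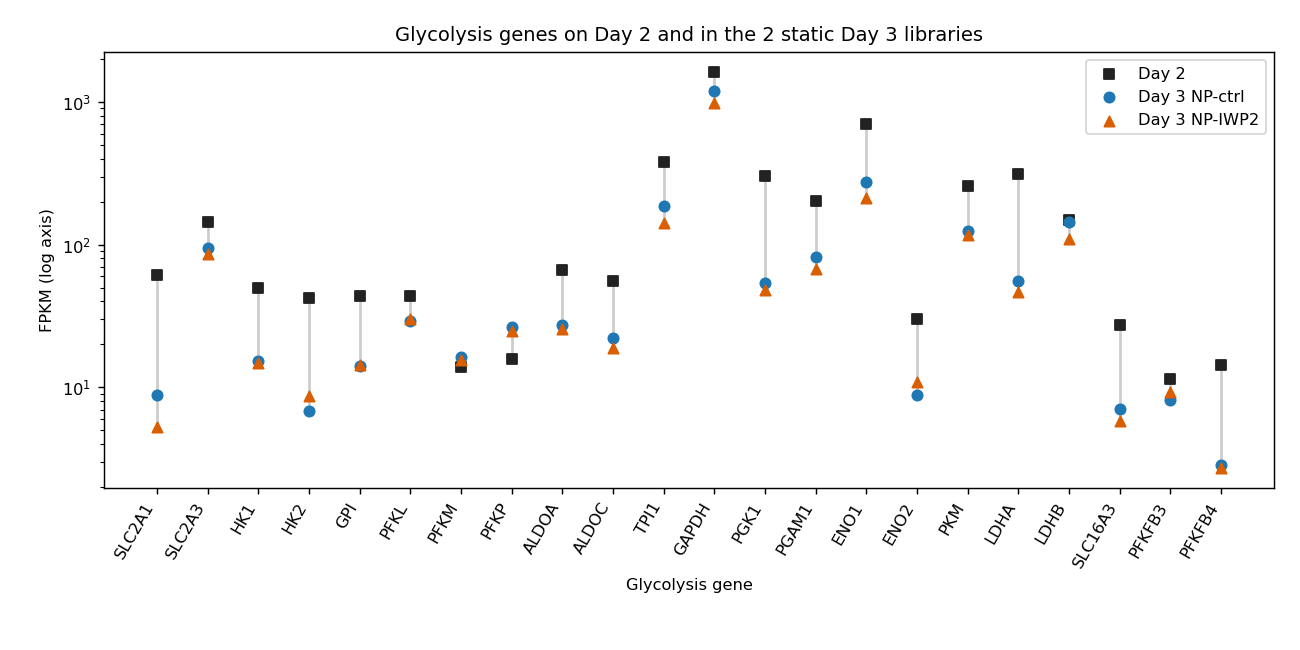
FPKM on a log axis of 22 genes of glucose uptake, glycolysis and lactate export on Day 2 (black squares), in Day 3 NP-ctrl (blue circles) and in Day 3 NP-IWP2 (orange triangles), in the order of the pathway with transport out and regulators last, and with 1 library per marker. SLC2A1 went from 61.6 FPKM to 8.92 and 5.25, while PFKP went from 15.9 FPKM to 26.6 and 25.

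Because these genes fell together, their promoters were read for ACGTG, the core of the hypoxia response element, on both strands (CACGT on the other strand), in the 250 bases before the RefSeq start site on GRCh38.p14. A palindromic CACGTG holds both and counts as 2 overlapping matches. Of the 9 hypoxia genes that fell, 5 held the letters (LDHA, PGK1, BNIP3, P4HA1 and HK2), as did 23.7% of the 10137 compared genes with a window, 27.5% of the genes that fell and 15.1% of the genes that rose. Among all 27305 promoters the share was 18.6%. The letters were also in 2 of the 4 other hypoxia genes with a window, CA9 and ANKRD37. CA9 was below the filter and was not compared. Of all 13 genes of the list with a window, 7 held them. The list was made of genes named for their response to hypoxia, so a share above that of all genes cannot be tied to the fall. In the glycolysis list, 7 of the 15 genes that fell held them, and 8 of all 21 with a window. LDHA, PGK1 and HK2 are counted in both lists. SLC2A1, PDK1, ENO1 and KDM3A fell without a match in this window. A match is a description of letters and not of binding. The windows of LDHA, PGK1 and BNIP3 are shown, with the matches in capitals, because they hold the letters on both strands. They lie at chr11:18394313-18394562 (plus strand), chrX:78103998-78104247 (plus strand) and chr10:131981924-131982173 (minus strand).
LDHA: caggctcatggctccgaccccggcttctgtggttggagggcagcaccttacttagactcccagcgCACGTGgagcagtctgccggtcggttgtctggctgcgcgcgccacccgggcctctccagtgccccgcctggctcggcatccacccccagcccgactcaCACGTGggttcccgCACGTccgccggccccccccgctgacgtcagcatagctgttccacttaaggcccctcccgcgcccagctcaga
PGK1: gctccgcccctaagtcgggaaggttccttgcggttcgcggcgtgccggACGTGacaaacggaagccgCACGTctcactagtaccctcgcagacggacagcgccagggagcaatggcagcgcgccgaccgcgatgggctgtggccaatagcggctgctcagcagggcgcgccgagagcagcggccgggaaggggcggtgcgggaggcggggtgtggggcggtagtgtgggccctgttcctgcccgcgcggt
BNIP3: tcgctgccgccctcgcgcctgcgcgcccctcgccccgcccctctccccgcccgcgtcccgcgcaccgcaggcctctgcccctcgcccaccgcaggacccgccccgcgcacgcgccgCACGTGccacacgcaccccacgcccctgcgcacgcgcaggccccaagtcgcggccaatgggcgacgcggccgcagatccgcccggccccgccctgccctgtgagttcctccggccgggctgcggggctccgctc
The first base of each match lay 185, 184, 87, 86 and 73 bases before the start of LDHA, 202 and 183 bases before that of PGK1, and 134 and 133 bases before that of BNIP3.

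Genes of other fates were few. Of 15 endothelial and blood precursor genes, 5 reached the filter and none passed in both libraries. ETV2, the first regulator of that lineage, was at 0.57, 1.40 and 1.14 FPKM, and LMO2, a hematopoietic cofactor, passed in NP-ctrl only at 1.91, 0.38 and 0.51 FPKM. Of 7 endoderm genes compared, CER1 and CXCR4 fell, and CXCR4, a chemokine receptor shared with mesoderm, went from 16.3 to 4.43 and 3.22 FPKM. FOXA2, the endoderm and node factor, was at 5.74, 3.33 and 4.80 FPKM and did not pass. None of 4 neuroectoderm genes compared passed in both libraries. OTX2, an anterior gene, was at 44, 11.3 and 23.5 FPKM and passed in NP-ctrl only. Of 6 immediate early genes, IER3 alone fell, from 83.8 to 16.9 and 15.9 FPKM, while FOS, an acute stress marker, was at 4.63, 3.94 and 3.58 FPKM.

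All 16 DNA replication genes were compared and none moved by the rule. Of the 16, 15 were lower in both static libraries, with medians of -0.45 and -0.46. A shared direction was common, in 10759 of all 13808 genes compared, and the share lower in both was not counted separately. MCM2, a subunit of the replicative helicase, was at 31.2, 17.2 and 21.3 FPKM and PCNA, the sliding clamp, at 122, 88.6 and 80.9 FPKM. In the passaged library they were at 44.1 and 189 FPKM. Of 13 G2 and mitosis genes none passed, with medians of 0.07 and -0.10. CDKN1A, the p21 inhibitor, fell from 16.8 to 4.42 and 4.50 FPKM, whereas CDKN1C, the p57 inhibitor, was at 14.7, 36.2 and 28.2 FPKM and passed upward in NP-ctrl only. Of 10 genes of the ATF4 stress response, none passed and 8 were lower in both libraries.

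The static libraries did not always move together. Of the genes compared, 802 passed in 1 library only, of which 208 were higher and 264 lower in NP-ctrl, and 237 higher and 93 lower in NP-IWP2. The 5 protein-coding genes of this kind with the largest gaps were CCBE1, RGS4, CYP26A1, NPY and APCDD1L. CCBE1, a secreted factor of heart and lymphatic development, was at 0.07, 8.60 and 1.00 FPKM, and RGS4, a regulator of G protein signalling, at 0.03, 5.17 and 0.30. CYP26A1 was at 32.4, 4.23 and 18.9 FPKM, so the NP-IWP2 library retained more of it. NPY, a neuropeptide, was at 15.3, 20.1 and 5.14 FPKM, and APCDD1L at 14.2, 5.55 and 20.9 FPKM. Among WNT targets, DKK1 was at 0.04, 2.91 and 0.27 FPKM, LEF1 at 18.6, 58.9 and 30.8 FPKM, and BAMBI at 41.5, 142 and 46.1 FPKM, each higher in NP-ctrl. CDX2, a posterior gene, was at 5.90, 2.55 and 0.63 FPKM and was also higher in NP-ctrl than in NP-IWP2. The effect of IWP2 and the difference between single cultures cannot be told apart in these gaps.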

How the data were processed

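Bulk RNA sequencing of 15 libraries gave 1 table. Per the labels and the study's methods, the authors trimmed reads with cutadapt 1.9.1, aligned them to hg38 with HISAT2 2.0.1 and counted reads per gene with HTSeq 0.6.1. The methods name a long-read library kit beside these short-read tools, which was not resolved. The deposited counts are whole numbers, not normalized. The deposited FPKM values are those counts scaled by the authors to exonic length and total count, and recomputing them gave differences of at most 0.005. Total counts ranged from 13254723 to 20250115, and 3 counts of a gene of 1 kilobase are an FPKM of 0.148 to 0.226. Samples were grouped by their titles.

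Changes were taken on log2(FPKM + 1), which understates the change of low genes. With 1 library per label no test was the main result. A gene listed at 0 counts was set to a floor of 3 counts per library and its fold is a bound. Alternatives were edgeR 4.0.16 (quasi-likelihood) and DESeq2 1.42.0 in R 4.3.3 on the counts, both with 1 residual degree of freedom, which is the gap between the static libraries, and other scalings, filters and thresholds. The scripts were tested on simulated data with known changes.

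Named genes were the 10 protein-coding genes with the largest rise and the 10 with the largest fall by the smaller change, the 5 with the largest gap among those past the rule in 1 library or in opposite directions, and members of the lists in order of role. The part of the series, the rule and the lists were chosen with earlier results of these data known, and the glycolysis and erythroid lists were added after seeing the values. Of the identifiers, 60463 matched GENCODE 44, and 93.8% had identical coordinates, so positions are on GRCh38. Use of strand in counting is not given in the sources used here, so genes that overlap or have near-identical copies (CFC1 and CFC1B, MESP1 and MESP2, GYPB and GYPE, the HOXB cluster, antisense RNAs) are uncertain. Promoter sequences are those of RefSeq.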

Additional observations from a re-analysis of the deposited data

Results flagged for a closer look

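Of the genes compared, 2 passed the threshold in opposite directions in the static libraries. ENSG00000225218, a long noncoding RNA on chromosome 21, changed by -1.69 in NP-ctrl and by 1.16 in NP-IWP2 on the log2(FPKM + 1) scale, from 29 counts on Day 2 to 4 and 48. SNORD62B, a small nucleolar RNA on chromosome 9, changed by -1.43 and 1.09, from 23 counts to 6 and 34. The difference between the libraries was not tested, since each is 1 sample, and both genes rest on fewer than 50 counts in each library.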

How the results depend on the processing

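No paired analysis was possible because each label has 1 library and no replicate numbers are shared. The counts of 469 rises and 346 falls stayed within 1.5 times under TMM, DESeq2 size factors and a total without mitochondrial counts. The same held with no count minimum, with no filter and with protein-coding genes only. All 815 genes met the requirement that both exact intervals lie beyond 1. With at least 30 counts in 1 library and a change of at least 1, that outcome was nearly fixed in advance. The counts of rises and falls moved further under a pseudocount of 0.1 (923 and 609) and a threshold of 2 (100 and 62). So they did under a mean FPKM of at least 5 (280 and 201) and under TPM (752 and 560). With 1 static library left out, the rises were 677 to 708 and the falls 439 to 612, the 708 and 439 being without NP-ctrl and the 677 and 612 without NP-IWP2. The edgeR quasi-likelihood test called 1023 higher and 1051 lower at an adjusted p under 0.05, among them 449 of the 469 and 335 of the 346. DESeq2 called 614 and 553, among them 413 and 302. In both tests the lone Day 2 library is assumed to vary as the static pair did. DESeq2 size factors moved the median change of all genes by -0.10 in NP-IWP2, and under these and under TMM 4 rather than 2 pluripotency genes fell and 7 rather than 8 cardiac genes rose. Across 299 named or listed genes, 676 of 2392 values under other settings moved by more than the exact interval of the counts. No change that passed turned its sign, but the rule left little room for that. A change that passed in both libraries keeps its sign when 1 is left out, and the scalings moved the medians by about 0.10 or less. The medians of the WNT antagonist list (0.14 without NP-IWP2) and of the G2 and mitosis list (0.07 without NP-IWP2) changed sign. Removal of the length trend was added after seeing the data.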

Other observations

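A few genes known from red cells rose without globins. Of 19 such genes, chosen after their values were seen, 8 were compared, 6 rose and 1 fell. Members below 1 FPKM on Day 2 entered through Day 3 and could not have fallen by the rule. KEL, a blood group glycoprotein, went from 2.24 FPKM to 27.0 and 43.9, KLF1, a regulator of erythroid genes, from 1.01 to 8.96 and 7.49, and EPOR, the erythropoietin receptor, from 9.04 to 27.2 and 25.6. GYPE, a glycophorin, had 0 counts on Day 2 and 95 and 204 counts on Day 3, and GYPB had 3, 116 and 232 counts. These glycophorins are near-identical copies. GATA1 had 0, 6 and 3 counts, HBZ had 0 in all 3 libraries, and TFRC, the transferrin receptor, fell from 10.8 to 2.98 and 4.27 FPKM.

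Of 1115 long noncoding RNAs compared, 77 rose (6.91%) and 51 fell (4.57%), against 3.40% and 2.51% of all genes compared. The shares were larger in both directions. A gene of low level enters the comparison through the library where it is high, and levels were not matched between the 2 sets. Whether the larger shares belong to this class of RNA was not tested. The following were named after their values were seen. LINC00678 went from 16.4 FPKM on Day 2 to 0.69 and 1.14, and ESRG, a transcript of undifferentiated cells, from 45.8 to 4.74 and 7.22. MEIS1-AS3, antisense to MEIS1, went from 0.49 to 9.92 and 8.91 FPKM, and MEIS1 itself, a homeobox cofactor, from 2.36 to 17.6 and 14 FPKM. Without strand the reads of this pair cannot be told apart.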
